A study of Mus musculus with 8 samples.

Results

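The genes Mpp7, Cables1, Cep350, Tns2, Tmem178, Btg2 and Ccn1 were described in mouse striatum. They were chosen by their measured log2 differences from control, which ran the same way in all 3 groups of MPTP-treated mice. These 7 genes, of 14890 with a tested probe set, were measured by 13 of the 16342 tested probe sets (groups of probes for 1 transcript region), and all 13 passed the filter on dim signals. The differences from control chose the genes, so they are given as a description without a test, while differences between the MPTP-treated groups were tested. Mpp7, Cables1, Cep350 and Tns2 were higher in MPTP-treated mice, and Tmem178, Btg2 and Ccn1 were lower.

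RNA came from the striatal tissue of both brain sides of 8 male C57BL/6 mice, an inbred strain, with 1 array per mouse and 2 mice per group. Their age is given as 6 weeks, and whether that is before or after the 4 weeks of injections is not settled here. The MPTP group received MPTP-HCl, equal to 20 mg/kg of free base, into the abdomen every 24 h for 4 weeks, without needling. The acupoint group received the same MPTP and was also needled by hand on both sides at the leg point GB34, to 3 mm, and the foot point LR3, to 1 mm, in 14 sessions 48 h apart. The non-acupoint group received the same MPTP and was needled at both hips (3 mm deep) on the same schedule. Control mice received saline once daily for 4 weeks. No saline group with needling is described, so needling was always measured on top of MPTP. The labels number the samples of a group as mice and give 9 mice each for the MPTP and control treatments, of which 2 per group were used for RNA.

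MPTP is converted in the brain to a toxic ion that enters dopamine neurons through the dopamine transporter and blocks complex I of the mitochondrial respiratory chain. The striatum receives the axons of these neurons, while their cell bodies lie in the midbrain. The 7 genes belong to unlike families. Mpp7, Tns2 and Cep350 encode structural proteins of cell contacts, adhesions and centrosomes, Cables1 encodes a kinase adaptor and Tmem178 a membrane protein of calcium signalling, and Btg2 and Ccn1 are immediate early genes, which are transcribed soon after a cell is stimulated.

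Array medians lay between 6.02 and 6.12 on the log2 scale, and 8 arrays set the precision of what follows. In controls, all 15 measured markers of striatal projection neurons were above the median of named probe sets, as were 9 of 9 cortex, 10 of 10 astrocyte, 10 of 10 oligodendrocyte, 10 of 12 thalamus and 2 of 12 choroid plexus markers, so this measure does not set striatum apart from other brain tissue. The arrays differed in neighbouring tissues, given here as the mean of a marker list relative to controls. Choroid plexus markers (12 genes) stood at 2.30 and -0.19 in MPTP mice 1 and 2, at 2.46 and 0.09 in acupoint mice, and at 2.19 and 2.93 in non-acupoint mice, against 0.05 and -0.05 in control mice. Over these arrays the summed log2 level of the list ran from 69.96 to 99.84 in MPTP mice, 73.34 to 101.84 in acupoint mice and 98.58 to 107.43 in non-acupoint mice, against 71.71 to 72.83 in controls. Thalamus markers (12 genes) stood at 2.00 and -0.65 in MPTP mice, 0.70 and -0.14 in acupoint mice and 0.34 and 1.37 in non-acupoint mice, against 0.03 and -0.03 in control mice. Striatal neuron markers were at -1.92 in MPTP mouse 1. In tissue, fewer cells of a type and less RNA per cell cannot be told apart.

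The first question was how each gene moved from control in each MPTP-treated group. For each gene the probe set with the highest mean was used, and in all 7 the 6 MPTP-treated arrays lay beyond both control arrays. Of all tested probe sets, 3.72% had 6 such arrays above both controls and 3.56% had them below, and the count for the 7 genes follows from how they were chosen. Limma called 0% of probe sets at an adjusted p of 0.05 in the comparison of all MPTP-treated mice with control, with 552 at an unadjusted p under 0.05.

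**Figure D1:**
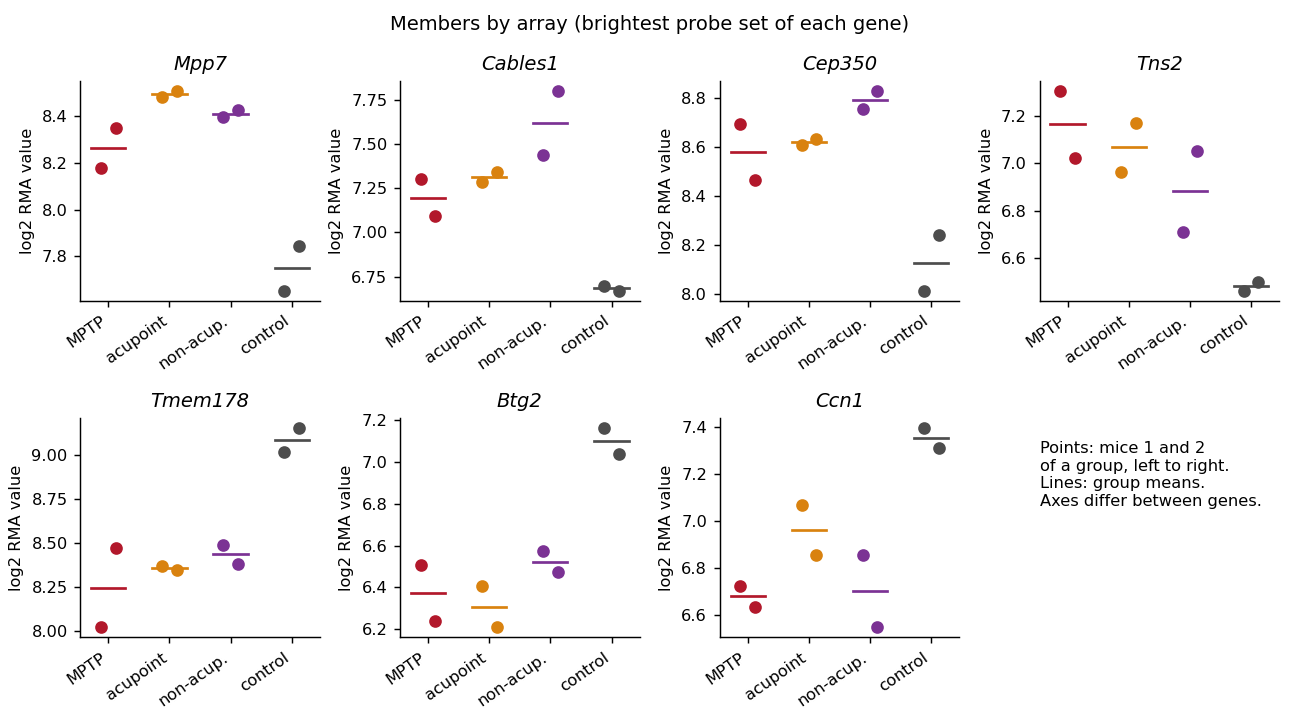
Log2 values of the 7 genes (vertical axes, brightest probe set of each gene) in the MPTP, acupoint, non-acupoint and control groups, with a point for each mouse and a line at each group mean. In each panel the 6 MPTP-treated mice lie on one side of the control mice, for example 7.09 to 7.80 against 6.67 and 6.70 for Cables1.

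Among the structural genes, Mpp7 encodes a membrane-associated guanylate kinase scaffold that binds the polarity protein Dlg1 and the Lin7 proteins at cell junctions. Its log2 values were 8.18 and 8.35 in MPTP mice, 8.48 and 8.51 in acupoint mice and 8.39 and 8.42 in non-acupoint mice, against 7.65 and 7.85 in control mice. The lowest MPTP-treated array was 0.33 above the highest control. Group means exceeded control by 0.51 in MPTP, 0.74 in acupoint and 0.66 in non-acupoint mice, and the 3 groups together by 0.64 on the log2 scale, or 1.56-fold.

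Its other probe set was 7.64 and 8.03 in MPTP mice, 7.93 and 7.96 in acupoint mice and 7.74 and 7.99 in non-acupoint mice, against 7.38 and 7.55 in control mice. The groups did not overlap there either, but the gap was narrower, at 0.09, and MPTP mouse 1 was the lowest of the treated arrays with both probe sets. The change of all MPTP-treated mice was 0.42 with it.

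Tns2 encodes a tensin, a protein that links integrins at focal adhesions to the actin cytoskeleton. Values of 7.30 and 7.02 in MPTP mice, 6.96 and 7.17 in acupoint mice and 6.71 and 7.05 in non-acupoint mice stood against 6.46 and 6.50 in control mice. The controls were close together, whereas non-acupoint mouse 1 lay only 0.21 above them. Means exceeded control by 0.68 in MPTP, 0.59 in acupoint and 0.40 in non-acupoint mice, 1.47-fold over the 3 groups.

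Cep350 encodes a large centrosomal protein that helps to anchor microtubules and to stabilise centrioles, and was measured by 6 probe sets. The brightest gave 8.69 and 8.46 in MPTP mice, 8.61 and 8.63 in acupoint mice and 8.75 and 8.83 in non-acupoint mice, against 8.01 and 8.24 in control mice. That probe set showed a change of 0.54 over all MPTP-treated mice, or 1.45-fold, with a gap of 0.23 between the groups.

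The other probe sets gave a smaller change for the same gene. Over the 6, the change of all MPTP-treated mice ran from 0.17 to 0.54 with a median of 0.29, and all 6 were above 0. The treated and control arrays were apart in 2 of the 6 and overlapped in 4, where MPTP mouse 2 or an acupoint mouse reached the range of the controls. The Cep350 difference in MPTP and acupoint mice therefore depended on the probe set, with medians of 0.21 and 0.22, against 0.47 in non-acupoint mice.

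**Figure D2:**
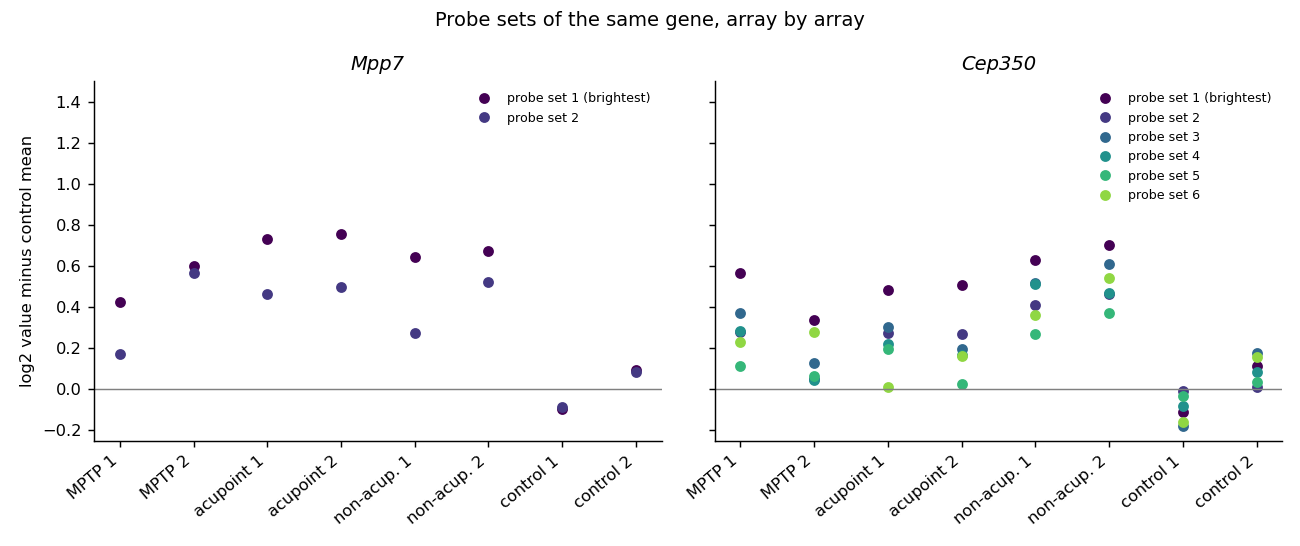
Log2 value minus the control mean (vertical axis) on each array (horizontal axis) for the 2 probe sets of Mpp7 and the 6 of Cep350, with a colour for each probe set. Both Mpp7 probe sets lie above control on the 6 treated arrays, while each Cep350 probe set is highest in the non-acupoint mice.

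Among the signalling genes, Cables1 encodes an adaptor that binds the neuronal kinase Cdk5 and the tyrosine kinase Abl1. Its log2 values were 7.30 and 7.09 in MPTP mice, 7.29 and 7.34 in acupoint mice and 7.44 and 7.80 in non-acupoint mice, against 6.70 and 6.67 in control mice. The gap between treated and control arrays was 0.40. Means exceeded control by 0.51 in MPTP, 0.63 in acupoint and 0.93 in non-acupoint mice, 1.62-fold over the 3 groups.

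Tmem178 encodes a membrane protein of the endoplasmic reticulum that restrains calcium signals in mouse osteoclasts. Its values were 8.02 and 8.47 in MPTP mice, 8.37 and 8.34 in acupoint mice and 8.49 and 8.38 in non-acupoint mice, against 9.02 and 9.16 in control mice. The gap was 0.53, with MPTP mouse 1 the lowest. Differences from control were -0.84 in MPTP, -0.73 in acupoint and -0.65 in non-acupoint mice, a 1.67-fold lower level over the 3 groups.

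The 2 immediate early genes were both lower in MPTP-treated mice. Btg2 encodes an antiproliferative protein that recruits the CCR4-NOT deadenylase to messenger RNA and is a target of p53. Its log2 values were 6.51 and 6.24 in MPTP mice, 6.41 and 6.21 in acupoint mice and 6.57 and 6.47 in non-acupoint mice, against 7.16 and 7.04 in control mice. All 6 treated mice were at least 0.46 below the controls. Differences from control were -0.72 in MPTP, -0.79 in acupoint and -0.58 in non-acupoint mice.

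Ccn1, also known as Cyr61, encodes a secreted matricellular protein that binds integrins and is a usual target of YAP and SRF. Values of 6.73 and 6.64 in MPTP mice, 7.07 and 6.86 in acupoint mice and 6.86 and 6.55 in non-acupoint mice stood against 7.40 and 7.31 in control mice. Acupoint mouse 1 was closest to control, at a gap of 0.25. Differences from control were -0.67 in MPTP, -0.39 in acupoint and -0.65 in non-acupoint mice.

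The promoters of Btg2 and Ccn1 are shown because both are lower members whose promoters are known to respond to stimuli. RefSeq promoter entries (GRCm38.p6) were matched by symbol for 4 of the 7 genes, Tns2, Tmem178, Btg2 and Ccn1. The 250 bases before the gene start are printed 5′ to 3′ on the gene's strand, the minus strand for both, at chr1:134079156-134079405 and chr3:145649986-145650235, and capitals mark letters that match a searched motif.
Btg2: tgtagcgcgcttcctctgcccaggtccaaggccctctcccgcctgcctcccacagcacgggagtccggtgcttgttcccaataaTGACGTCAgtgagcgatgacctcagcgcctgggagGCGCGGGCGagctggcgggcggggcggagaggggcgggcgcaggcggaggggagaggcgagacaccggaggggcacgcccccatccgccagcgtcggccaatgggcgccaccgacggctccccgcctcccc
Ccn1: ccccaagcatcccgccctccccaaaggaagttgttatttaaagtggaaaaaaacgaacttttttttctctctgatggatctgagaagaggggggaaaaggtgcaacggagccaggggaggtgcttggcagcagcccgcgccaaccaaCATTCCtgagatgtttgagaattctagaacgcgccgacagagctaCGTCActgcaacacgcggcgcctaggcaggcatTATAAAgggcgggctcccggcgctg

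The first capital run of Btg2 is the full cAMP response element (TGACGTCA), 166 to 159 bases before the start, and the other is an EGR motif (GCGNGGGCG) at 131 to 123. Its full element holds the shorter core (TGACG) on both strands. In Ccn1, the capitals mark in order a TEAD motif (GGAATG, here on the other strand) at 103 to 98 bases before the start, the core at 58 to 54 on the other strand, and a TATA box (TATAAA) at 25 to 20. Both strands were searched. Of 32851 promoters of this length, 1.55% held the full element, 17.8% the core, 4.70% the EGR motif, 12.6% the TEAD motif and 12.4% the TATA letters.

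In the promoters found for 25 immediate early genes, Btg2 and Ccn1 included, the core was present in 17, the full element in 2 (Btg2 and Dusp1) and the EGR motif in 8. The windows of Tns2 and Tmem178 held none of the 10 motifs, which also included AP-1 (TGANTCA, in 6.75% of promoters), the E-box (CACGTG, 6.02%), the D-box (TTATGTAA, 0.819%), the glucocorticoid response element (0.0091%) and the CArG box (1.47%). A match is a description of letters, not of a bound site.

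The second question was whether needling moved these genes within MPTP-treated mice. Between the MPTP-treated groups, 0 of the 7 genes passed the adjusted threshold in any of 3 comparisons, by limma over all 16342 probe sets, where 0% of probe sets were called in each. At an unadjusted p under 0.05 there were 588 probe sets for acupoint against MPTP, 1076 for non-acupoint against MPTP and 526 for acupoint against non-acupoint needling. Of the 7 genes by their brightest probe sets, 1 was at an unadjusted p under 0.05 in the second of these and 0 in the others. All 3 comparisons use arrays whose differences from control chose the genes.

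Acupoint needling against MPTP alone gave differences between -0.10 and 0.28. The largest was that of Ccn1, at 7.07 and 6.86 in acupoint mice, against 6.73 and 6.64 in MPTP mice, a difference of 0.28 (SE 0.14, 95% interval -0.04 to 0.60, adjusted p = 0.90 by limma). Mpp7 was next, at 0.23 (SE 0.11, interval -0.03 to 0.49, adjusted p = 0.90). With 1 array left out, Ccn1 ran from 0.18, without acupoint mouse 1, to 0.39, without acupoint mouse 2, and Mpp7 from 0.14, without MPTP mouse 1, to 0.32, without MPTP mouse 2. Cables1 was 0.014 without MPTP mouse 2 and 0.22 without MPTP mouse 1. By the brightest probe sets, the groups were apart for Ccn1 and Mpp7 and overlapped for the other 5. With the other Mpp7 probe set the groups overlapped, at a difference of 0.11. Of all tested probe sets, 8.41% were apart and higher in acupoint mice and 18.9% apart and lower. The differences were 0.12 for Cables1, 0.04 for Cep350, 0.11 for Tmem178, -0.10 for Tns2 and -0.07 for Btg2. Signs turned for Tns2 (0.044), Tmem178 (-0.11) and Btg2 (0.067) without MPTP mouse 1, for Cep350 (-0.073) without MPTP mouse 2, for Tns2 (0.0072) without acupoint mouse 1 and for Btg2 (0.033) without acupoint mouse 2.

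**Figure D3:**
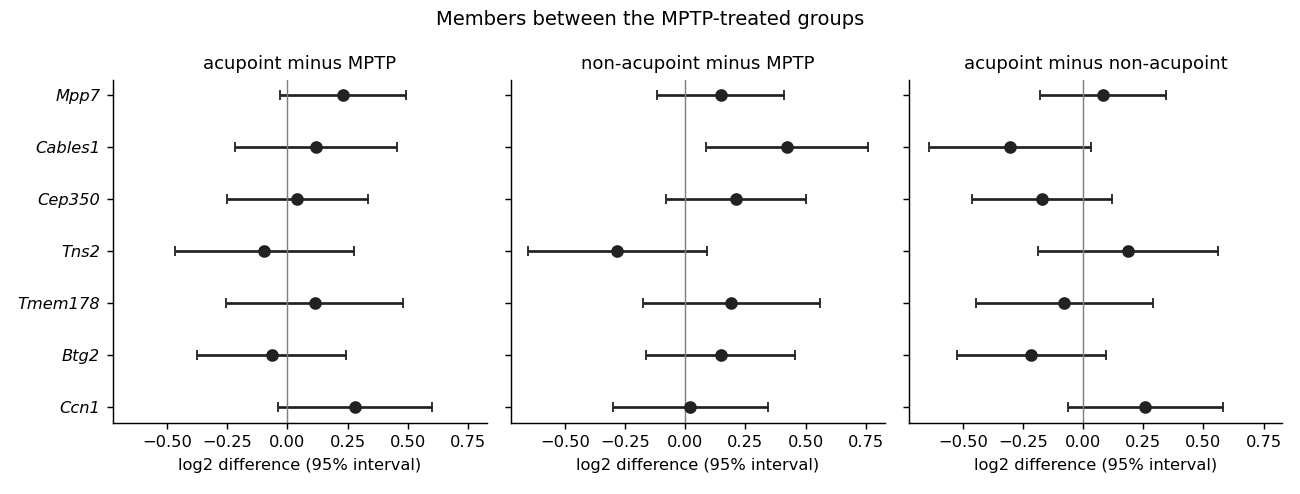
Log2 difference between MPTP-treated groups (horizontal axis, point) with its 95% interval from limma (bar) for the 7 genes, in panels for acupoint minus MPTP, non-acupoint minus MPTP and acupoint minus non-acupoint. The interval of Cables1 for non-acupoint minus MPTP, 0.08 to 0.76, lies above 0 before adjustment over all probe sets, and the others include 0.

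Non-acupoint needling against MPTP alone gave the widest spread, from -0.28 for Tns2 to 0.42 for Cables1. Cables1 was 7.44 and 7.80 in non-acupoint mice, against 7.30 and 7.09 in MPTP mice, so that the groups were apart. Its difference was 0.42 (SE 0.14, 95% interval 0.08 to 0.76, adjusted p = 0.72 by limma). When an array was left out it lay between 0.24, without non-acupoint mouse 2, and 0.60, without non-acupoint mouse 1. Cep350 differed by 0.21 (SE 0.12, interval -0.08 to 0.50, adjusted p = 0.75) and Tns2 by -0.28 (SE 0.16, interval -0.65 to 0.09, adjusted p = 0.75). With 1 array left out, Cep350 ran from 0.098, without MPTP mouse 2, to 0.33, without MPTP mouse 1, and Tns2 from -0.45, without non-acupoint mouse 2, to -0.11, without non-acupoint mouse 1. The remaining differences were 0.19 for Tmem178, 0.15 for Mpp7, 0.15 for Btg2 and 0.02 for Ccn1. By the brightest probe sets, Cables1, Cep350 and Mpp7 were apart and higher, beside 15.4% of all tested probe sets. By the same probe sets, 0 of the 7 were apart and lower, beside 17.7%. The other Mpp7 probe set overlapped, at a difference of 0.03.

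Acupoint against non-acupoint needling gave differences from -0.30 to 0.26. Cables1 was 7.29 and 7.34 in acupoint mice, against 7.44 and 7.80 in non-acupoint mice, a difference of -0.30 (SE 0.14, 95% interval -0.64 to 0.03, adjusted p = 0.96 by limma). Btg2 differed by -0.21 (SE 0.13, interval -0.52 to 0.10), Cep350 by -0.17 (SE 0.12, interval -0.46 to 0.12) and Tmem178 by -0.08. On the other side were Ccn1 (0.26, SE 0.14, interval -0.06 to 0.58), Tns2 (0.19) and Mpp7 (0.08). By the brightest probe sets, Cables1, Cep350, Tmem178 and Btg2 were apart and lower in acupoint mice, where 24.6% of tested probe sets were. Mpp7 and Ccn1 were apart and higher, where 13.9% were. The other Mpp7 probe set overlapped here too, at a difference of 0.08. For Ccn1 the nearest arrays were equal to 2 decimals, at 6.86. With 1 array left out, the difference ran from -0.49 to -0.12 for Cables1, 0.014 to 0.36 for Tns2, 0.11 to 0.41 for Ccn1, -0.31 to -0.11 for Btg2 and -0.13 to -0.025 for Tmem178. The ends were reached without a non-acupoint mouse, and for Btg2 without an acupoint mouse.

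Cep350 and Cables1 were highest in the non-acupoint mice. In all 6 Cep350 probe sets and in that of Cables1, both non-acupoint mice were above the 6 other arrays, as were 6.82% of all tested probe sets. The other arrays include the controls, so the choice of the genes fixed a share of this count, and nothing is read from it. The Cep350 probe sets measure 1 gene and are not independent. For them, the non-acupoint difference from MPTP ran from 0.20 to 0.33, with a smallest adjusted p of 0.74, and that of acupoint from non-acupoint needling ran from -0.37 to -0.17, with a smallest adjusted p of 0.96 by limma. Before adjustment, 2 of the 6 were under 0.05 in each of these comparisons by limma, with smallest values of 0.027 and 0.032. Of all 16342 tested probe sets, 1076 were under 0.05 in the first of these comparisons and 526 in the second. The brightest Cep350 probe set was under 0.05 in neither. Of the 2 probe sets, 1 was the same in both comparisons, at an unadjusted p of 0.027 and 0.038 by limma, and the other differed. The same non-acupoint arrays had choroid plexus markers at 2.19 and 2.93, thalamus markers at 0.34 and 1.37, ependymal markers at 0.18 and 0.47 and astrocyte markers at 0.07 and 0.19. All 12 ependymal markers were apart and higher in non-acupoint than in MPTP mice, with a median of 0.59. So were 3 of 12 choroid plexus and 4 of 10 astrocyte markers, beside 15.4% of all tested probe sets. In acupoint mice 8 of the 12 ependymal markers were also apart and higher than in MPTP mice, with a median of 0.40, beside 8.41%. The ependymal marker mean was below control in the MPTP mice themselves, at -0.45 and -0.25. Over the 6 MPTP-treated arrays, the astrocyte marker mean had a Pearson correlation of 0.94 with Cep350 and 0.88 with Cables1, the highest among the 9 lists for both, as a description. Its correlation was 0.80 with Btg2, which was lower than control in these mice, and between -0.22 and -0.09 with Mpp7, Tns2, Tmem178 and Ccn1. For these genes another list had the largest correlation in size. It was choroid plexus for Btg2 (0.87), striatal neurons for Tmem178 (0.89) and Mpp7 (0.78), oligodendrocytes for Tns2 (0.72) and endothelium for Ccn1 (-0.81). The choroid plexus and thalamus lists had 0.77 and 0.67 with Cep350, and 0.66 and 0.50 with Cables1. The non-acupoint difference from MPTP was 0.15 for the brightest Cep350 probe set and 0.34 for Cables1 with the choroid plexus marker mean as a covariate, and 0.20 and 0.40 with the thalamus marker mean. The part of ependymal and astrocyte content was not tested. Mpp7, by its brightest probe set only, had both acupoint mice above the 6 other arrays, where 1.13% of tested probe sets were. With its other probe set, MPTP mouse 2 (8.03) and non-acupoint mouse 2 (7.99) were above both acupoint mice (7.93 and 7.96). No other gene of the 7 had such a probe set, and the Mpp7 difference from control was likewise used to choose it.

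Arrays of a group also differed in these genes. In the MPTP group, mouse 1 minus mouse 2 was -0.45 for Tmem178, 0.28 for Tns2, 0.27 for Btg2, 0.23 for Cep350, 0.21 for Cables1, -0.17 for Mpp7 and 0.09 for Ccn1. The median size of this difference over the 7 genes was 0.23 in MPTP, 0.05 in acupoint and 0.11 in non-acupoint mice, against 0.12 in control mice. Over all tested probe sets it was 0.20 in MPTP, 0.13 in acupoint and 0.12 in non-acupoint mice, against 0.10 in control mice. The largest outside the MPTP group was -0.36, for Cables1 in non-acupoint mice.

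**Figure D4:**
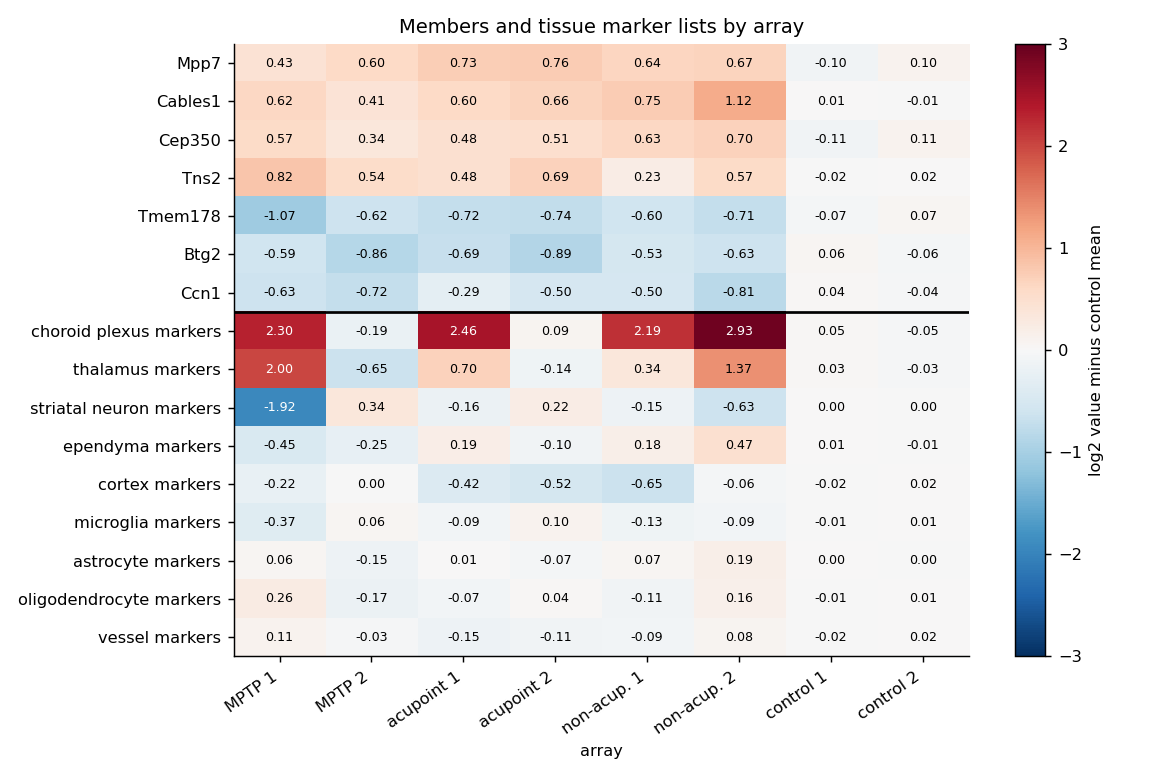
Log2 value minus the control mean for the 7 genes (upper rows, brightest probe set) and the mean of each tissue marker list (lower rows) on each of the 8 arrays (columns), with the value printed in each cell and shown as a colour. The 7 genes, picked for it, have 1 sign on all 6 treated arrays, while choroid plexus markers stand at -0.19 in MPTP mouse 2 and 0.09 in acupoint mouse 2 and between 2.19 and 2.93 on the other 4.

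Choroid plexus markers were lowest among the treated arrays in MPTP mouse 2 and acupoint mouse 2, at -0.19 and 0.09. Ttr, which encodes the transthyretin that this tissue secretes, was at 8.12 and 9.98 there, against 8.63 and 8.88 in controls. Other lists differed from control in these mice, with thalamus at -0.65, striatal neurons at 0.34 and ependyma at -0.25 in MPTP mouse 2, and cortex at -0.52 and striatal neurons at 0.22 in acupoint mouse 2. In these 2 mice Mpp7 stood 0.60 and 0.76 above the control mean, Cables1 0.41 and 0.66, Cep350 0.34 and 0.51, and Tns2 0.54 and 0.69. Tmem178 was at -0.62 and -0.74, Btg2 at -0.86 and -0.89, and Ccn1 at -0.72 and -0.50. With the choroid plexus marker mean as a covariate, the 28 differences from control of the 7 genes were 0.635 to 1.39 times those without it, and with the thalamus marker mean 0.775 to 1.13 times. These are the differences that chose the genes, and nothing is read from their sign.

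Tmem178 was lowest in MPTP mouse 1, where striatal neuron markers were at -1.92 and Drd1, the D1 dopamine receptor, at 7.93, against 10.29 and 10.32 in controls. Without that mouse, the Tmem178 difference between MPTP and control mice was -0.62. The part of tissue make-up in these differences was not tested.

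The relatives of these genes were compared with them over all MPTP-treated mice minus control, from lists chosen with earlier results known and with the 7 genes left out. Limma called 0 genes of any list, and counts below are of means and of groups that did not overlap, beside 3.72% higher and 3.56% lower of all tested probe sets. The median change of all tested probe sets was -0.00034.

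Of 10 other p55 scaffolds and partners of Mpp7, 2 had higher means and 8 lower, with a median of -0.09. Mpp6, the closest in direction, was 9.65 and 9.36 in MPTP mice, 9.46 and 9.51 in acupoint mice and 9.48 and 9.51 in non-acupoint mice, against 9.20 and 9.30 in control mice, a change of 0.24. Mpp3 differed by -0.40 and the Mpp7 partner Dlg1 by -0.23, and for both the lowest array was MPTP mouse 1, at 7.35 and 9.60. Mpp6 was the only one apart and higher, and Mpp3 and Lin7a were apart and lower. For Cables1, none of 7 relatives and kinase partners was apart, with a median of 0.01. Its paralog Cables2 changed by 0.04, and Cdk5r1, an activator of Cdk5, by 0.06.

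Tensins and focal adhesion genes other than Tns2 had higher means in 14 of 17 and a median of 0.14, with 4 apart and higher and 0 apart and lower. Tns1, another tensin, was 8.00 and 7.54 in MPTP mice, 7.72 and 7.78 in acupoint mice and 7.74 and 7.93 in non-acupoint mice, against 7.48 and 7.41 in control mice. Its change was 0.34, and the treated and control arrays did not overlap. Vcl, the adhesion protein vinculin, changed by 0.29 and was apart as well. Itga5, an integrin subunit, stood at -0.20.

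Among 24 other centriole and centrosome genes, 13 had higher and 11 lower means, and the median was 0.01. The 3 that were apart were all higher, among them Sass6, a builder of new centrioles, at 0.30 and Cep97, which restrains cilium growth, at 0.20. Cep19, which binds Cep350, was at -0.13.

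For Tmem178, none of 12 relatives and genes of store-operated calcium entry was apart, and their median was 0.02. The paralog Tmem178b was 8.75 and 8.70 in MPTP mice, 8.90 and 8.67 in acupoint mice and 9.09 and 8.99 in non-acupoint mice, against 8.78 and 8.76 in control mice. Its groups overlapped, and the change was 0.08. The channel gene Orai1 was at -0.07 and the calcium release channel gene Itpr2 at 0.16.

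Around Btg2, of 14 BTG/TOB and CCR4-NOT genes, 7 had higher and 7 lower means, the median was 0.00020, and 1 was apart, Tob2, at -0.15. Btg1 differed by -0.29, with MPTP mice at 9.65 and 10.68, against 10.70 and 10.65 in control mice. Of 16 other p53 targets, 9 had higher means with a median of 0.03. Trp53inp1 (0.23) was apart and higher and Ddit4 (-0.17) apart and lower, while Plk2 (-0.46) overlapped.

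Of 28 other immediate early genes, 26 had lower means in MPTP-treated mice, 12 were apart and lower, and the median was -0.32. Nr4a1, an orphan nuclear receptor, was 7.90 and 9.71 in MPTP mice, 9.67 and 9.62 in acupoint mice and 9.75 and 9.57 in non-acupoint mice, against 10.48 and 10.51 in control mice. Npas4, a transcription factor of active neurons, was 5.95 and 6.55 in MPTP mice, 6.80 and 6.76 in acupoint mice and 6.99 and 7.09 in non-acupoint mice, against 7.93 and 7.95 in control mice. For both, each treated array was below both controls, and MPTP mouse 1 was the lowest. Per1, a clock gene, was the highest of the list, at 0.12.

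In the CCN family, all 4 other measured members had lower means, with a median of -0.21, and 2 were apart. Ccn3 had a larger change than Ccn1, at -1.26, with 6.64 and 8.21 in MPTP mice, 6.77 and 6.62 in acupoint mice and 6.20 and 7.55 in non-acupoint mice, against 8.28 and 8.23 in control mice. MPTP mouse 2 was just below the controls, and the other treated mice were lower. Ccn2, the other YAP target of the family, changed by -0.25 with overlapping groups. Of 20 further YAP and SRF genes, 10 had higher and 10 lower means. Amotl1 was the highest, at 0.54, with 9.44 and 7.43 in MPTP mice, against 7.44 and 7.59 in controls.

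**Figure D5:**
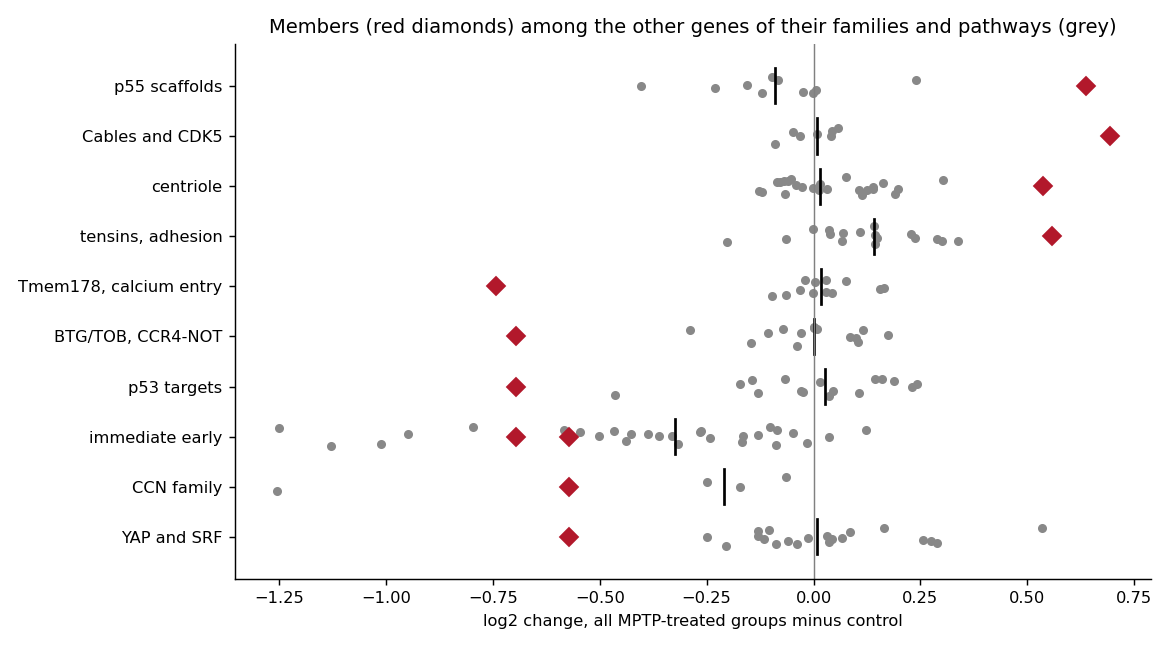
Log2 change of all MPTP-treated groups minus control (horizontal axis) for the 7 genes (red diamonds) and the other measured genes of each family or pathway list (grey points, with a black line at their median), where a gene on several lists appears in each. Mpp7, Cables1, Cep350, Tns2 and Tmem178 lie outside the range of their lists. Btg2 and Ccn1, which are on other lists too, lie within the range of the immediate early genes. The 7 genes were picked for this change and their relatives were not.

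The genes with the most similar patterns were ranked by Pearson correlation over the 8 arrays, as a description. The 7 genes share the step between control and treated arrays, which sets much of each correlation. For Btg2, the closest were Tmeff2 (r = 0.96), Fos (0.94) and Dusp1 (0.94), the last 2 being immediate early genes. Dusp1, a phosphatase of MAP kinases, was 8.79 and 8.48 in MPTP mice, 8.52 and 8.52 in acupoint mice and 8.77 and 8.89 in non-acupoint mice, against 9.20 and 9.29 in control mice. For Ccn1 they were Cyp4b1 (0.95), H2-M10.3 (0.93) and Mtch1 (0.93), and for Tmem178 the clone 2210406O10Rik (0.97), Lrrc8d (0.96) and Yjefn3 (0.95).

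Cep350 was closest to the circadian repressor gene Bhlhe41 (r = 0.98), Rad18 (0.97) and Kdm5c (0.96), and Cables1 to Tbc1d4 (0.98), Rpgrip1l (0.98) and Efcab14 (0.96). Nearest to Mpp7 were Ndufaf4 (0.96), Carnmt1 (0.96) and Cnep1r1 (0.95), and to Tns2 were Atg5 (0.95), Lgi2 (0.94) and the clock repressor gene Ciart (0.94). Between 10 and 48 probe sets reached a correlation above 0.9 with each of the 7 genes.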

How the data were processed

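Gene expression was measured in 8 mouse striata, in 4 groups of 2, on whole-transcript arrays from 300 ng of total RNA, per the labels' protocols. Per the submitters' processing notes, the authors made the values with RMA in Affymetrix Expression Console (version not listed there). RMA corrects background, quantile-normalises arrays and summarises each probe set, and the deposited table holds 1 log2 value per probe set and array, used as it stands. Quantile normalisation hides a shift shared by most genes. The build is not given in the sources used here.

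Of 35557 probe sets, 21789 had 1 gene symbol, 1621 several and 12147 none. Of those with 1 symbol, 21698 were found in RefSeq through their gene ID, and 0 names had to be updated. Probe sets were tested if they had 1 symbol and averaged 5.25 or more (the 25th percentile over probe sets with 1 symbol). The 4 groups were fitted in 1 model by lmFit and eBayes of limma 3.58.1 under R 4.3.3 (4 residual and 2.94 prior degrees of freedom), with Benjamini-Hochberg adjustment over 16342 probe sets at a threshold of 0.05. For 2 mice per group, the smallest two-sided p of an exact permutation test is 0.333. The fit was run on simulated data with known changes, as a check of the estimated sizes only. The simulated arrays had no differences in tissue make-up, and nothing is read from them about how many changes can be called.

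The genes, lists, tests and alternatives were chosen with earlier results of these data known. Names were drawn from the 7 genes, per list the 2 highest and 2 lowest other genes by change, 3 tissue markers and, for each gene, the 3 most correlated genes. Genes named outside this rule were chosen after their values were seen: Tmem178b, Lin7a, Vcl, Tob2, Trp53inp1, Ddit4 and those in the last section. Alternatives were other filters, probe sets, shrinkage, normalisations, array weights, marker covariates, 2-group fits, a replicate block and leaving out each array.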

Additional observations from a re-analysis of the deposited data

How the results depend on the processing

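Under 19 alternatives, of which 8 left out 1 array each, 0 of the 7 genes was called between MPTP-treated groups, and the smallest adjusted p of limma was 0.095. Of 396 such differences 386 kept their sign. The Ccn1 difference of non-acupoint from MPTP mice became -0.040 with the choroid plexus covariate. With 1 array left out, acupoint minus MPTP ran from -0.073 to 0.16 for Cep350, -0.24 to 0.044 for Tns2, -0.11 to 0.34 for Tmem178 and -0.20 to 0.067 for Btg2, and non-acupoint minus MPTP from -0.035 to 0.42 for Tmem178 and -0.13 to 0.17 for Ccn1. Differences from control chose the genes, so their stability is no evidence. Of these, 1 turned, that of a Cep350 probe set, at -0.07 for acupoint mice without control mouse 1.

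Counts of called probe sets, 0 in all 7 comparisons, changed as follows. With unnamed probe sets included there was 1 for MPTP against control, 1 for non-acupoint needling against control and 2 for all MPTP-treated mice against control, and with array weights 1 for the last. Fits of only the groups compared gave 1 for acupoint and 2 for non-acupoint needling against control. The thalamus covariate gave 14 for non-acupoint needling against MPTP and 2 for MPTP against control. With 1 array left out the counts ran from 0 to 1453 for acupoint and 0 to 794 for non-acupoint needling against MPTP, 0 to 1607 for MPTP against control and 0 to 70 for all MPTP-treated mice against control. The highest were all without MPTP mouse 2. A fit without 1 array takes the spread of the shortened group from the other groups, whichever array is dropped. MPTP mouse 1, which stayed in those fits, had striatal neuron markers at -1.92 and thalamus markers at 2.00 relative to controls. The cause of the changes in these counts was not tested.

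Replicate numbers gave no pairing: the deviations of same-numbered mice correlated between -0.49 and 0.40 over group pairs. With the replicate block, counts stayed at 0 in all 7 comparisons and Cables1 in non-acupoint against MPTP mice stayed at 0.42 (adjusted p = 0.79 by limma). The number of arrays limits all values.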

Other observations

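Other named genes also had a gap between the 6 MPTP-treated and the 2 control arrays, some wider than those of the 7 genes. They were chosen after their values were seen and are described without a test. On the higher side, Adamts15, a secreted protease of the extracellular matrix, had a gap of 0.36 and a change of 0.67 over all MPTP-treated mice on the log2 scale. Inmt, a methyltransferase of indole amines, had a gap of 0.31 and a change of 0.84, and Nqo1, an oxidative stress enzyme, a gap of 0.27 and a change of 0.44. On the lower side, Npas4 (0.84), Nr4a1 (0.73), Arc (0.60), Egr2 (0.57) and Fos (0.56), all immediate early genes, had wider gaps than Tmem178 (0.53) and Btg2 (0.46). Satb1, a chromatin organiser, followed with a gap of 0.35 and a change of -0.52.

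Of all tested probe sets, 24.1% had all 3 MPTP-treated group means above control and 23.6% had all 3 below it.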
